A study of Rattus norvegicus with 69 samples.

Results

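The genes described here are those of respiratory complex I whose rat symbol starts with Nduf: the nuclear subunits, the assembly factors named Ndufaf, and pseudogenes or paralogous copies with such a symbol. Of 36685 probe sets on the array, 46 were annotated to exactly 1 such symbol, and they stood for 44 genes of the 14557 genes with 1 symbol, each represented by its probe set with the highest mean. A further 3 probe sets were annotated to several symbols (Ndufs5 with Ndufs5-ps2 on 2 sets, and Ndufa10 with Ndufa10l1) and were not used.

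The blood came from Sprague-Dawley rats, all male and aged 9 weeks when bought, that had breathed either HEPA-filtered air or printer-emitted particles (PEPs) from printer B1 for 5 h/day over 1 to 21 days. The 69 arrays fell into 14 groups: air and PEPs on days 1, 5, 9 and 13 (5 arrays each), day 17 (4 air, 5 PEPs) and day 21 (6 each), and air and PEPs rats of day 21 that carried an implanted radio telemetry transmitter (4 each, day 21T). All rats were bled terminally under pentobarbital. The labels say that the exposure was run more than once but do not tie rats to a run, so a run and a group cannot be told apart, and p-values measure the spread between these rats. Values are log2 intensities after robust multi-array averaging (RMA), on which a difference of 1 is a doubling.

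Blood cell genes were well above background: the mean of 13 erythroid and reticulocyte genes lay between 9.40 and 10.6 and that of 17 T cell genes between 6.82 and 8.12 over the 69 arrays. In the fit 4 arrays had a weight under 0.5, namely Air_D1 replicate 2 (0.229), Air_D13 replicate 1 (0.246), PEP_D5 replicate 1 (0.286) and PEP_D1 replicate 5 (0.452). Air_D1 replicate 2 was low in platelet genes (mean of 12 genes 5.28, against 8.41 to 8.98 in the other 4 arrays of its group).

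Complex I takes electrons from NADH, passes them along iron-sulfur clusters to ubiquinone, and pumps protons across the inner mitochondrial membrane. It has a matrix arm, made of an NADH-oxidising N module and a ubiquinone-reducing Q module, and a membrane arm that holds the proton pumps. Around the core subunits sit accessory subunits, most of them needed for assembly or stability, and dedicated assembly factors join the pieces and then leave. In blood, leukocytes, platelets and reticulocytes carry mitochondria, whereas mature red cells have lost theirs.

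By role, the 44 genes comprised 2 core N-module subunits (Ndufv1, which binds FMN, and Ndufv2), 3 core Q-module subunits (Ndufs3, Ndufs7 and Ndufs8), 9 accessory subunits of the matrix arm, 12 accessory subunits of the membrane arm, the mitochondrial acyl carrier protein Ndufab1, Ndufa4 and its paralogue Ndufa4l2 (Ndufa4 is now counted with complex IV), 7 assembly factors, and 8 pseudogenes or paralogous copies. No mitochondrially encoded subunit was matched to a probe set with 1 symbol, so the proton-pumping core of the membrane arm was not measured here. Because probes of a pseudogene or a near-identical copy can bind the parent transcript, values of Ndufb4-ps9, Ndufa13-ps1, Ndufs6-ps1, Ndufaf7-ps1, Ndufb11b and the Ndufb4-like genes are uncertain as to their source.

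The promoters of 37 of the 40 protein-coding genes among the 44 were found in RefSeq (build GRCr8), from 250 bases before to 50 after the transcript start. 4 of them are shown, because these genes are the protein-coding ones whose values fell between day 1 and day 21 in at least 1 arm, as described further on. Each is written 5′ to 3′ on the strand of the gene, in lower case, with capitals for any of 5 motifs searched on both strands.
Ndufa11 (chr9:1637364-1637663, plus strand): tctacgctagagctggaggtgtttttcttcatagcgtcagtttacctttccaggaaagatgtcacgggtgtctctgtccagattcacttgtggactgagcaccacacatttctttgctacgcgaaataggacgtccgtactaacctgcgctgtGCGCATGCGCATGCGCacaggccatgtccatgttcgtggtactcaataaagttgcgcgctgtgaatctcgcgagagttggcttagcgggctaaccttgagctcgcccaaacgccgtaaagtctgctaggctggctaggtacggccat
Ndufb11 (chrX:4126067-4126366, plus strand): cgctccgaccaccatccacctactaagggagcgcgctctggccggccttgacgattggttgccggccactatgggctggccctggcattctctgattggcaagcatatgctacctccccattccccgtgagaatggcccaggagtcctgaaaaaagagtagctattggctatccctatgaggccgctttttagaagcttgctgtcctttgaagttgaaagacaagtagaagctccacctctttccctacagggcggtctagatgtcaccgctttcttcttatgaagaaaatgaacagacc
Ndufa12 (chr7:30658066-30658365, plus strand): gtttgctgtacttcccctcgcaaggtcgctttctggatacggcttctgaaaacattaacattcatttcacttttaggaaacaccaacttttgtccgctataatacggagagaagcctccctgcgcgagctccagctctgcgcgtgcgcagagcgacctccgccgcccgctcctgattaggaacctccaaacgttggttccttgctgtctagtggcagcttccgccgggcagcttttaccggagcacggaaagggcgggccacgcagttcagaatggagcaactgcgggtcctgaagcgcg
Ndufb2 (chr4:69334057-69334356, plus strand): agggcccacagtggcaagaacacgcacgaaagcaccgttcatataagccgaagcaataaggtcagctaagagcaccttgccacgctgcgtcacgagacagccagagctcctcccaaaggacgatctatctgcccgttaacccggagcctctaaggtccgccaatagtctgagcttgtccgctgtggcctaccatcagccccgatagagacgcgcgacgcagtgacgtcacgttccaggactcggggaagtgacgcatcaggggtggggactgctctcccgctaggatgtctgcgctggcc
The capitals in Ndufa11 are overlapping copies of the NRF1 core, GCATGCGC, recognised by a regulator of nuclear genes for mitochondrial proteins. The other 3 promoters shown held none of the 5 motifs. Over the 37 promoters the NRF1 core occurred in 4 (Ndufa11, Ndufa6, Ndufaf4 and Ndufaf5), or 10.8%, against 2.47% of all 33469 promoters of the same length. The latter were not restricted to protein-coding genes, as the 37 were, and the part of this in the contrasts given here was not tested. The YY1 core AAGATGG occurred in 9 (24.3%, against 7.01% of all), the ETS core CCGGAAG, which the factor GABP binds, in 6 (16.2%, against 8.75%), the TATA box TATAAA in 4 (10.8%, against 14.2%), and the element of oestrogen-related receptors CAAGGTCA in 0 (1.52% of all). The median GC content was 55.7% for these promoters and 51.7% for all. These are matches of letters, not measured binding sites.

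Levels differed widely between probe sets, and since probes differ in affinity they are compared only with the background of the array. In 32 of the 44 genes the value was above the median of its array on all 69 arrays, and in 38 it was above the lower quartile on all of them. Ndufb9, a membrane-arm subunit of the LYR-motif family, lay between 7.17 and 8.43, and Ndufa12, a matrix-arm subunit, between 5.92 and 8.79. At the other end, Ndufaf7-ps1 exceeded the lower quartile on 6 arrays and Ndufb4l4 on 21, and they exceeded the median on 0 and 4 arrays. Lower quartiles of arrays ran from 1.4 to 1.8 and medians from 2.44 to 2.78.

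**Figure D1:**
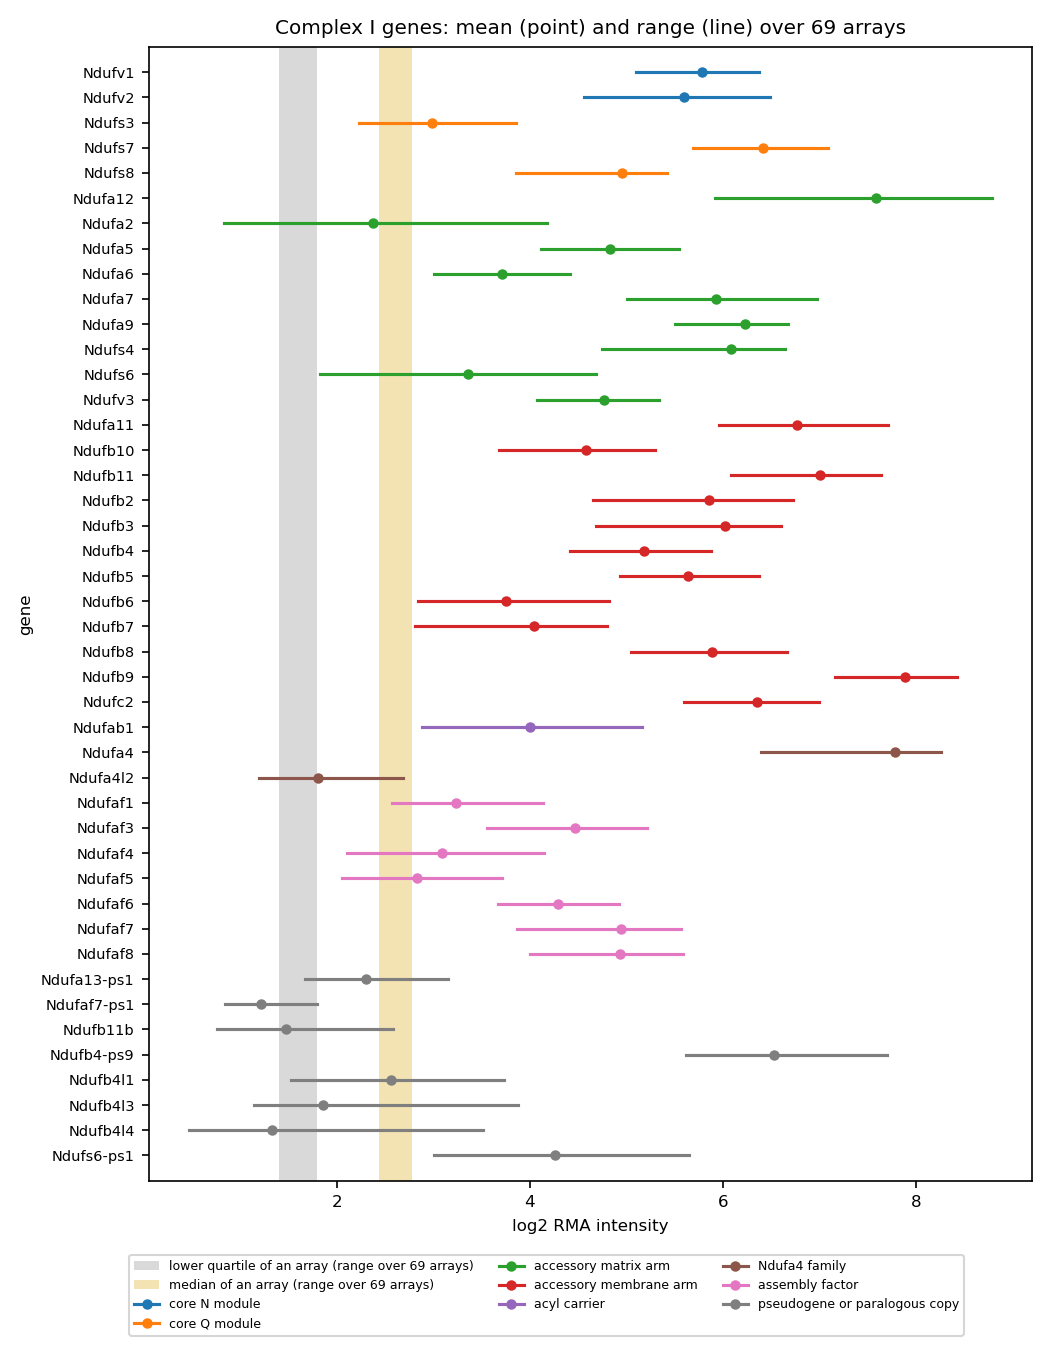
Mean (point) and range (line) of the log2 RMA intensity of each of the 44 genes over 69 arrays, coloured by role, with the range over arrays of the lower quartile (grey band) and median (yellow band) of all probe sets. Most subunits lie to the right of both bands, while the means of Ndufa2, Ndufa4l2 and 6 of the 8 pseudogenes or copies (not Ndufb4-ps9 and Ndufs6-ps1) lie within the bands, between them or below them.

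The spread within groups, after subtraction of the group means, had a median SD of 0.33 over the 44 genes and of 0.31 over all genes. It was largest for Ndufa2 (0.64), Ndufb4l4 (0.61) and Ndufs6 (0.61), and smallest for Ndufaf7-ps1 (0.2), Ndufa9 (0.2) and Ndufb9 (0.21). Ndufa9 and Ndufaf7-ps1 had a variance under 0.05 over all arrays and were not tested, which left 42 genes in every test.

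Ndufa2, an accessory subunit of the N module that the study names, ranged from 0.83 to 4.18 and was above the median of its array on 21 of 69 arrays. The study lists Ndufa2 as up-regulated in blood on day 5. Its genes were selected by fold change without a p-value limit, a criterion unlike the one used here. The largest exposure difference of Ndufa2 was on day 5, where air arrays had 1.95, 2.02, 2.08, 2.43 and 3.12 and PEPs arrays 2.5, 2.52, 2.60, 3.54 and 3.60. The groups overlapped, and the difference of 0.71 ± 0.45 (SE) did not pass (limma adjusted p = 0.938). Over the 6 days without telemetry it stood at 0.25 ± 0.17 (adjusted p = 0.883).

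The 44 genes varied together only weakly. Over the 69 arrays, as deviations from the group means, the 946 pairs had a median Pearson r of 0.05 and 59.8% were positive, against −0.002 and 49.5% for pairs of all tested genes with 1 symbol. Among the 29 genes with a mean level of 4 or more the median was 0.12. The closest pair was Ndufb4 with Ndufb4-ps9 (r = 0.67), a gene and its pseudogene, followed by Ndufa4 with Ndufs4 (0.59), Ndufa12 with Ndufb11 (0.58) and Ndufb11 with Ndufb8 (0.56). All these points share the arrays and hence any difference in RNA quality between them.

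The mean of all 44 genes in an array lay between 4.31 and 4.86, with group means between 4.46 (air, day 17) and 4.71 (PEPs, day 5). Over the 69 deviations it ran with the mean of 31 genes of complexes II to V (Pearson r = 0.746, Spearman rho = 0.688) and, more loosely and in the opposite direction, with the lower quartile of the array (−0.355 and −0.286). With the means of NK and cytotoxic, platelet, monocyte and T cell genes it had r = 0.318, 0.3, 0.264 and 0.2, but rho = 0.261, 0.098, 0.123 and 0.097. With the mean of 13 erythroid and reticulocyte genes it had r = 0.031 and rho = 0.078. The tested genes outside the set that followed the mean of the 44 genes most closely were Snrpe, a spliceosome core protein (r = 0.638, rho = 0.586), LOC100910714 (0.629, 0.55), LOC100359505 (0.613, 0.589), Pdcd6, a calcium-binding protein (0.573, 0.574), and Ccdc90b (0.571, 0.451), all over 69 arrays and given as a description.

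Single members were also set against the lists. Each of the 44 genes was set against 9 list means (396 relations) as deviations from the group means, with arrays permuted within groups, and 43 relations passed by Pearson r, 33 of them by Spearman rho as well. The smallest r among the 43 was 0.35 in size, a size reached in 14.6% of the 396 relations and in 22.1% of those of all 13570 tested genes with 1 symbol, so relations of this size were not more frequent among the 44 genes. By list the shares were 29.5% of the 44 genes against 4.3% of all genes for complexes II to V, 20.5% against 35.3% for monocyte genes, 13.6% against 32.7% for T cell genes and 27.3% against 40.2% for olfactory receptor genes, which are near background in blood. Ndufa4 ran with the mean of 12 platelet genes (r = 0.755, permutation p = 0.00019, adjusted p = 0.00443; rho = 0.574, permutation p = 0.00011, adjusted p = 0.00544), and r was 0.514 without the arrays farthest out, Air_D1 replicate 2 and Air_D9 replicate 1. Ndufc2, a membrane-arm subunit, ran with 12 NK and cytotoxic genes (r = 0.608, permutation p = 2e-05, adjusted p = 0.00198; rho = 0.586, permutation p = 3e-05, adjusted p = 0.00297; r = 0.616 without 2 arrays).

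Ndufa11, a membrane-arm subunit, ran with the erythroid list (r = 0.505, permutation p = 6e-05, adjusted p = 0.00216; rho = 0.469, permutation p = 0.00015, adjusted p = 0.0066; r = 0.449 without 2 arrays) and against the 17 T cell genes (r = −0.566, permutation p = 4e-05, adjusted p = 0.00198; rho = −0.472, permutation p = 0.00042, adjusted p = 0.0111; r = −0.507 without 2 arrays). It also ran against the 13 monocyte genes (r = −0.559, permutation p = 3e-05, adjusted p = 0.00198; rho = −0.526, permutation p = 3e-05, adjusted p = 0.00297; r = −0.509 without 2 arrays) and with the olfactory receptor genes, a measure of array background (r = 0.475, permutation p = 0.00157, adjusted p = 0.0201; rho = 0.386, permutation p = 0.00375, adjusted p = 0.0424; r = 0.392 without 2 arrays). Ndufa4 and Ndufc2 ran against that background, with r = −0.64 (adjusted permutation p = 0.00198) and r = −0.509 (adjusted permutation p = 0.00878), and its part in their relations was not tested. Ndufb4 ran with the genes of complexes II to V (r = 0.662, permutation p = 2e-05, adjusted p = 0.00198; rho = 0.602, permutation p = 2e-05, adjusted p = 0.00297; r = 0.654 without 2 arrays), a level that 0.0516% of tested genes reached. Of all tested genes, 1.38% followed the platelet list as closely as Ndufa4 did and 0.31% the NK list as closely as Ndufc2. Since these are bulk samples, fewer cells of a type and less RNA per cell cannot be told apart.

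**Figure D2:**
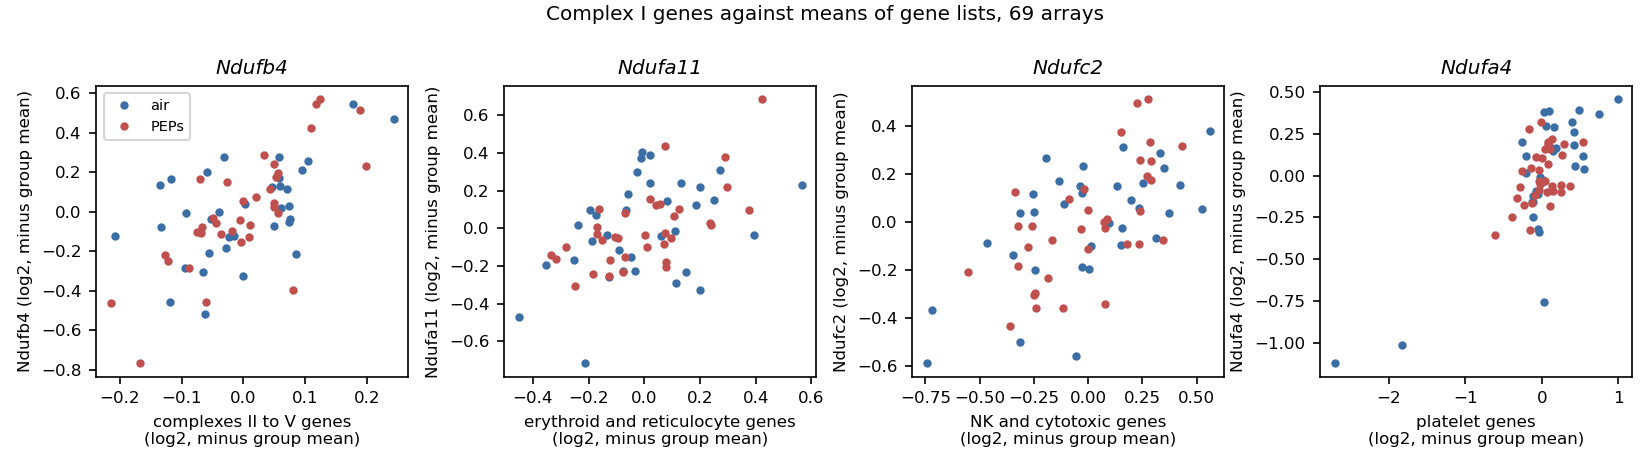
Deviation from the group mean (log2) of 4 complex I genes against that of the mean of a gene list, 1 point per array (69 arrays; blue, air; red, PEPs). Ndufb4 rises with the genes of complexes II to V, Ndufa11 with erythroid genes and Ndufc2 with NK and cytotoxic genes; the 2 arrays lowest in platelet genes are also the lowest in Ndufa4.

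The main comparison asked how PEPs rats differed from air rats of the same day. None of the 42 tested genes passed at an adjusted p under 0.05 on any day, in the telemetry rats or in the mean of the 6 days, by limma with Benjamini-Hochberg adjustment over 34176 probe sets. Few probe sets of any kind passed: 0% on days 1, 5, 17 and 21 and in the mean of 6 days, and 0.00585% on days 9 and 13 and in the telemetry rats. With no adjustment, at p under 0.05, day 1 gave 0 of the 42 genes (6.59% of all probe sets) and day 5 gave 1 (5.61%). Day 9 gave 8 (7.12%), day 13 gave 1 (7.7%), day 17 gave 3 (4.88%) and day 21 gave 2 (4.96%), while the telemetry rats gave 3 (5.33%) and the mean of the 6 days 1 (6.17%). Among these exposure comparisons, day 9 was the 1 in which the share among the 42 genes was well over that of all probe sets.

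The median difference over all 44 genes was largest on day 17, at 0.15, and lay between −0.03 and 0.07 in the other 7 exposure comparisons (0.10 on day 17 without Air_D17 replicate 2, the array with the lowest mean of the 44 genes), while the median over all genes lay between −0.0053 and 0.0098. The 95% confidence interval of the mean of 6 days lay within a 1.5-fold change in either direction for 41 of the 42 tested genes, with a median half-width of 0.159, whereas on single days this held for 13 to 34 of them.

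On day 9, 6 of the 8 genes at an unadjusted p under 0.05 were lower and 2 were higher with PEPs. Ndufb9 had 8.05, 8.06, 8.16, 8.26 and 8.42 in air and 7.35, 7.64, 7.76, 7.78 and 7.99 with PEPs. Every PEPs array was below every air array, which was true of 1 of the 44 genes and, in either direction, of 1.31% of all tested probe sets. Its difference was −0.44 ± 0.14 (SE; limma adjusted p = 0.42).

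Ndufc2 on the same day had 5.81, 5.90, 5.91, 6.15 and 6.23 in air and 6.14, 6.32, 6.41, 6.64 and 7.0 with PEPs. The groups overlapped in 1 PEPs array and 2 air arrays, with a difference of 0.50 ± 0.17 (limma adjusted p = 0.467). Ndufa13-ps1 (−0.54 ± 0.19, adjusted p = 0.501) and the assembly factor Ndufaf6 (−0.47 ± 0.17, adjusted p = 0.526) followed by p-value, and Ndufa7, Ndufb11, Ndufa11 and Ndufb5 made up the rest. On that day 10 of 12 NK and cytotoxic, 10 of 12 platelet, 12 of 15 neutrophil and 10 of 13 monocyte genes had higher estimates. So did 6 of 7 B cell, 7 of 17 T cell and 14 of 31 complexes II to V genes. Air_D9 replicate 1 (weight 0.532) was low in platelet genes, at 6.97 against 9.20 to 9.34 in its group. The part of these lists in the result was not tested.

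Ndufc2 was the gene with the smallest unadjusted p in the mean of the 6 days, at 0.21 ± 0.07 (limma adjusted p = 0.727), and the PEPs estimate was above air on 6 of 6 days. Over the 44 genes, 1 was higher on all 6 days, 5 on 5, 13 on 4, 13 on 3, 10 on 2 and 2 on 1 day. On single days between 48.5% and 52.3% of all genes had a higher estimate with PEPs. The share of all genes higher on all 6 days was not determined, so nothing particular to Ndufc2 can be read from this count. Next by p-value in the mean of 6 days were Ndufs6-ps1 (0.17 ± 0.09), Ndufa13-ps1 (−0.14 ± 0.08) and Ndufb3 (0.14 ± 0.08), with adjusted p-values between 0.84 and 0.859 (limma).

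On day 17, 34 of the 44 genes had a higher estimate with PEPs, where 52.3% of all genes did. Ndufv2, the N-module subunit with an iron-sulfur cluster, had 5.11, 5.39, 5.43 and 5.59 in air and 5.54, 5.76, 5.80, 5.80 and 6.05 with PEPs. A single air array reached into the PEPs range, and the difference of 0.46 ± 0.20 had a limma adjusted p of 1. Ndufc2 (0.38 ± 0.17), Ndufa5 (0.35 ± 0.17) and Ndufb11 (0.27 ± 0.15) came next, and Ndufb11 was the 1 gene of the 44 whose groups did not overlap (1.2% of all tested probe sets). Beside them, 25 of 31 genes of complexes II to V, 16 of 17 T cell, 12 of 12 NK and cytotoxic, 13 of 15 neutrophil and 10 of 13 monocyte genes had higher estimates on that day, and 7 of 7 B cell genes had lower ones (median −0.29), and their part in the result was not tested.

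The remaining days gave few low p-values. On day 1 the smallest belonged to Ndufaf6 (−0.35 ± 0.18, limma adjusted p = 0.763), Ndufs8 (−0.35 ± 0.20), Ndufb4-ps9 (−0.32 ± 0.21) and Ndufs6 (−0.55 ± 0.39). On day 5, Ndufb4l1, a paralogous copy of Ndufb4, had 2.85, 3.11, 3.31, 3.41 and 3.50 in air and 1.62, 1.76, 1.92, 2.58 and 2.91 with PEPs, near the background of the arrays. The groups overlapped in 1 array each, with a difference of −1.16 ± 0.38 (adjusted p = 0.697), ahead of Ndufaf8 (0.40 ± 0.21), Ndufb2 (0.39 ± 0.21) and Ndufa4 (0.32 ± 0.18).

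On day 13 the acyl carrier protein Ndufab1 stood at 0.55 ± 0.27 (limma adjusted p = 0.63), followed by Ndufs4 (0.30 ± 0.17), Ndufa11 (−0.23 ± 0.15) and Ndufs8 (−0.27 ± 0.18). Ndufs8 was the 1 gene of the 44 without overlap between groups on that day (1.04% of all tested probe sets), although 3 air arrays at 4.96 and a PEPs array at 4.95 nearly met. On day 21 the smallest p-values were those of Ndufa4l2, a paralogue induced by hypoxia (−0.39 ± 0.17, adjusted p = 0.969), Ndufs6 (−0.62 ± 0.29), Ndufaf8 (0.30 ± 0.16) and Ndufb9 (0.20 ± 0.11). Ndufa4l2 was near background, above the median of its array on 3 of 69 arrays.

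Among the telemetry rats, Ndufb6 of the membrane arm had 3.07, 3.19, 3.4 and 3.80 in air and 3.64, 3.77, 3.92 and 4.34 with PEPs. The groups overlapped and the difference was 0.57 ± 0.21 (limma adjusted p = 0.806). Ndufb11b (0.48 ± 0.23), Ndufb2 (0.42 ± 0.20) and Ndufa4 (0.30 ± 0.17) followed. Of these, Ndufb11b was near background, above the median of its array on 0 of 69 arrays. Ndufb2 was the 1 gene of the 44 whose groups were apart, with 5.59, 5.6, 5.7 and 5.77 in air and 5.88, 5.89, 6.23 and 6.23 with PEPs, where 2.74% of all tested probe sets were apart.

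Whether the exposure effect differed between the 6 days was asked with an F-test. None of the 42 genes passed (0% of probe sets did), and before adjustment 3 were under 0.05 (7.02% of probe sets): Ndufb9 (limma F = 3.21, adjusted p = 0.608), Ndufb4l1 (F = 2.87) and Ndufaf6 (F = 2.55), with Ndufa13-ps1 next (F = 2.07). Whether it differed with telemetry was asked on day 21, and again 0 of 42 passed (0% of probe sets), with 2 at an unadjusted p under 0.05 (5.26%): Ndufb6 (0.76 ± 0.26, adjusted p = 0.759) and Ndufb2 (0.57 ± 0.25), followed by Ndufb11b (0.55 ± 0.29, near background) and Ndufb4 (0.35 ± 0.23).

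**Figure D3:**
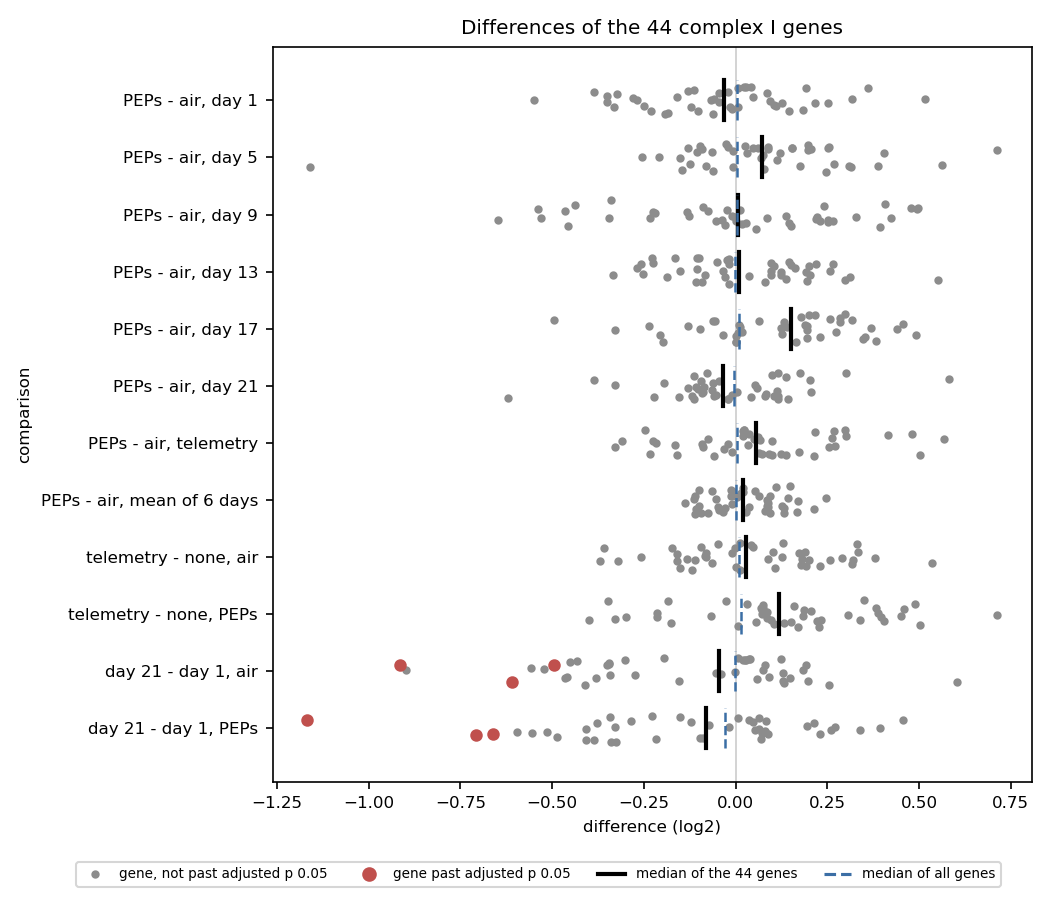
Differences (log2) of the 44 genes in 12 comparisons, 1 point per gene (red, adjusted p under 0.05), with the median of the 44 genes (black) and of all genes (dashed). Red points appear only between day 1 and day 21, 3 in each arm, all below 0.

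Rats with a telemetry implant were compared with rats without one on day 21. In air, 0 of the 42 genes passed by limma (0.468% of probe sets), before adjustment 2 were under 0.05 (9.52%), and the median over 44 genes was 0.03. The smallest p-values were those of Ndufb9 (0.29 ± 0.12, adjusted p = 0.388), Ndufa4 (−0.37 ± 0.15), Ndufs4 (0.32 ± 0.17) and Ndufb6 (−0.36 ± 0.19).

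With PEPs, 0 of the 42 genes passed (1.22% of probe sets), before adjustment 9 were under 0.05, 8 of them higher with telemetry (11.9% of probe sets in either direction), and 34 of the 44 genes had a higher estimate (53.1% of all genes). Ndufv2 ran from 5.20 to 5.78 (median 5.55) in the 6 rats without an implant and had 5.92, 5.93, 6.11 and 6.13 in those with one. All implanted rats were above the others, as for 3 of the 44 genes (Ndufv2 and Ndufs4 above, Ndufv3 below; 3.2% of all tested probe sets were apart), and the difference was 0.50 ± 0.17 (limma adjusted p = 0.132).

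Ndufb4 (0.46 ± 0.16, limma adjusted p = 0.168), Ndufb2 (0.49 ± 0.18) and Ndufb11 (0.35 ± 0.13) came next. Outside the 44 genes, the complex IV subunits Cox4i1 (0.47 ± 0.11, adjusted p = 0.0113) and Cox8a (0.60 ± 0.14, adjusted p = 0.0112) rose in the same comparison. So did 10 of 12 NK and cytotoxic genes and 6 of 13 monocyte genes, with list medians of 1.07 and 0.65, and 2 of 17 T cell genes fell, and their part in the result was not tested.

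Calls within the set came only between days. From day 1 to day 21, 3 of the 42 genes fell and 0 rose in air, and 3 fell and 0 rose with PEPs (limma, adjusted p under 0.05), where 1.97% and 8.13% of all probe sets passed in either direction. In the PEPs arm 3 of 42 is below the share of all probe sets that passed. At an unadjusted p under 0.05, 13 genes were called in air, all lower (16.6% of probe sets), and 10 with PEPs, 8 lower and 2 higher (24.1%). The median over the 44 genes was −0.05 in air and −0.08 with PEPs, beside −0.003 and −0.03 for all genes.

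Ndufa11 fell in both arms. In air it had 6.60, 7.25, 7.47, 7.56 and 7.71 on day 1 and ran from 6.35 to 6.95 (median 6.67) on day 21. A single day-1 array lay within the day-21 range, and the difference was −0.61 ± 0.15 (limma adjusted p = 0.0178). With PEPs it had 6.95, 6.98, 7.06, 7.26 and 7.53 on day 1 and 6.35 to 6.62 (median 6.53) on day 21, with no overlap, a difference of −0.66 ± 0.15 (adjusted p = 0.00437). Ndufa11 was 1 of 3 genes of the 44 whose PEPs groups did not overlap (5.52% of all tested probe sets), with Ndufaf7-ps1, also lower, and Ndufv3, higher. The air call was lost without Air_D1 replicate 1 (adjusted p = 0.111, the highest), Air_D1 replicate 4 or Air_D21 replicate 4, and the PEPs call was kept without any 1 array.

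Ndufb4-ps9 fell in air, from 6.39, 6.52, 6.99, 7.22 and 7.70 on day 1 to a range of 5.62 to 6.45 (median 6.29) on day 21, by −0.92 ± 0.18 (limma adjusted p = 0.00375). The groups overlapped slightly. The call was kept without any 1 array and lost when the arrays of those 2 groups were fitted alone (adjusted p = 0.135), as were the other 2 air calls (adjusted p = 0.196 for Ndufa11 and 0.243 for Ndufb11). With PEPs it stood at −0.39 ± 0.19 (adjusted p = 0.194). Ndufb4 itself, a membrane-arm subunit, had the next smallest p-value after the genes that passed with PEPs (−0.51 ± 0.18, adjusted p = 0.0597).

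Ndufb11, an X-linked membrane-arm subunit, fell in air from 6.70, 7.01, 7.42, 7.51 and 7.64 to 6.43 to 6.95 (median 6.76). It overlapped in 1 day-1 array and differed by −0.49 ± 0.14 (limma adjusted p = 0.0426), a call lost without any of Air_D1 replicates 1, 2 and 4 or Air_D21 replicates 3, 4 and 5 (highest adjusted p = 0.238, without Air_D1 replicate 1) and without the 4 arrays of low weight together. With PEPs it stood at −0.41 ± 0.14 (adjusted p = 0.0618). Ndufb8, also of the membrane arm, came next in air (−0.56 ± 0.18, adjusted p = 0.0932).

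With PEPs, Ndufa12, which in human cells takes the place of an assembly factor in the matrix arm, fell from 7.70, 7.84, 8.20, 8.55 and 8.64 to 6.19 to 7.77 (median 7.03). The difference was −1.17 ± 0.30 (limma adjusted p = 0.0117), overlapping in 1 array, and −0.90 ± 0.30 in air (adjusted p = 0.0955). Ndufb2 fell from 5.19, 6.25, 6.39, 6.57 and 6.58 to 5.27 to 6.0 (median 5.51), by −0.71 ± 0.19 (adjusted p = 0.0147), and the lowest day-1 array, PEP_D1 replicate 5, had a weight under 0.5 in the fit. With all arrays weighted equally the call of Ndufb2 was lost (−0.59, adjusted p = 0.0688), and also with the arrays of the 2 groups alone (adjusted p = 0.102). Both calls were lost without PEP_D1 replicate 2 (adjusted p = 0.0538 and 0.0649).

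Directions varied with role, which was not tested. Over all 44 genes, 17 were lower in both arms, 13 were higher in both and 14 went opposite ways. Of all genes, 49.6% had a higher estimate in air and 46.8% with PEPs. The share of all genes lower or higher in both arms was not determined. In the membrane arm 8 of 12 accessory subunits were lower in both arms and 2 higher in both, with medians of −0.36 in air and −0.31 with PEPs. Of the 8 pseudogenes or copies 4 were lower and 0 higher in both, with medians of −0.34 and −0.33. Of these copies, Ndufaf7-ps1, Ndufb4l4, Ndufb11b, Ndufb4l3, Ndufa13-ps1 and Ndufb4l1 had means of 1.2 to 2.6, near the background of the arrays. The lower quartile of the array also fell, on average from 1.57 to 1.44 in air and from 1.60 to 1.45 with PEPs. The matrix arm had 2 lower and 4 higher of 9 (medians 0.06 and 0.06) and the assembly factors 1 lower and 3 higher of 7 (0.04 and 0.07). Of the 8 genes of the other 4 roles, the core N and core Q modules had 1 lower and 1 higher each, and Ndufab1 and 1 of the Ndufa4 family were higher in both. The arms share no arrays, but they share the days of sampling. Ndufv3, an accessory subunit of the N module, ran the other way with PEPs, from 4.61 to 4.75 on day 1 to 4.85 to 5.30 on day 21 without overlap (0.39 ± 0.14, limma adjusted p = 0.0623), but its second probe set was uncorrelated with the set used (r = −0.071).

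Over all 6 days, an F-test found that 4 of the 42 genes changed in air (1.81% of probe sets; 10 at an unadjusted p under 0.05, against 16.6%) and 3 with PEPs (4.71%; 10, against 21.1%). In air these were Ndufb11 (limma F = 6.64, adjusted p = 0.0112), Ndufa11 (F = 6.62, adjusted p = 0.0113), Ndufb4-ps9 (F = 5.61, adjusted p = 0.0269) and Ndufb9 (F = 5.15, adjusted p = 0.0393). With PEPs they were Ndufa11 (F = 7.75, adjusted p = 0.00315), Ndufa7, an accessory subunit of the matrix arm (F = 5.99, adjusted p = 0.0119), and Ndufb2 (F = 4.62, adjusted p = 0.0362), with Ndufb4 next (F = 4.05, adjusted p = 0.0585). Ndufa11 and Ndufb11 in air and Ndufa11 and Ndufa7 with PEPs passed without any 1 array, but 0 of the 42 genes passed in either arm with 2 components of the olfactory receptor genes as covariates, and 0 in air when the air arrays were fitted alone. With all arrays weighted equally the calls of Ndufb4-ps9 (adjusted p = 0.139) and Ndufb2 (adjusted p = 0.191) were lost. The call of Ndufb4-ps9 was lost without Air_D1 replicate 1 or 4 or Air_D21 replicate 3 or 4 (highest adjusted p = 0.0946). That of Ndufb9 was lost without Air_D1 replicate 1 or 4, Air_D9 replicate 1, 3, 4 or 5, Air_D17 replicate 1 or Air_D21 replicate 1, 3, 4 or 5 (highest adjusted p = 0.102), and also without the 4 arrays of low weight together, and that of Ndufb2 without PEP_D1 replicate 1, 2, 3 or 4, PEP_D5 replicate 2 or 4 or PEP_D21 replicate 2, 3 or 4 (highest adjusted p = 0.0878).

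The courses were not alike. Ndufa11 was highest on day 1 and lowest on day 17 in both arms (7.32 and 6.43 in air, 7.15 and 6.44 with PEPs). Ndufb9 in air was highest on day 9 (8.19 ± 0.15, SD, n = 5) and lowest on day 21 (7.62 ± 0.18, n = 6). Ndufa7 with PEPs was highest on day 1 (6.25 ± 0.28, n = 5) and lowest on day 9 (5.48 ± 0.38, n = 5).

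**Figure D4:**
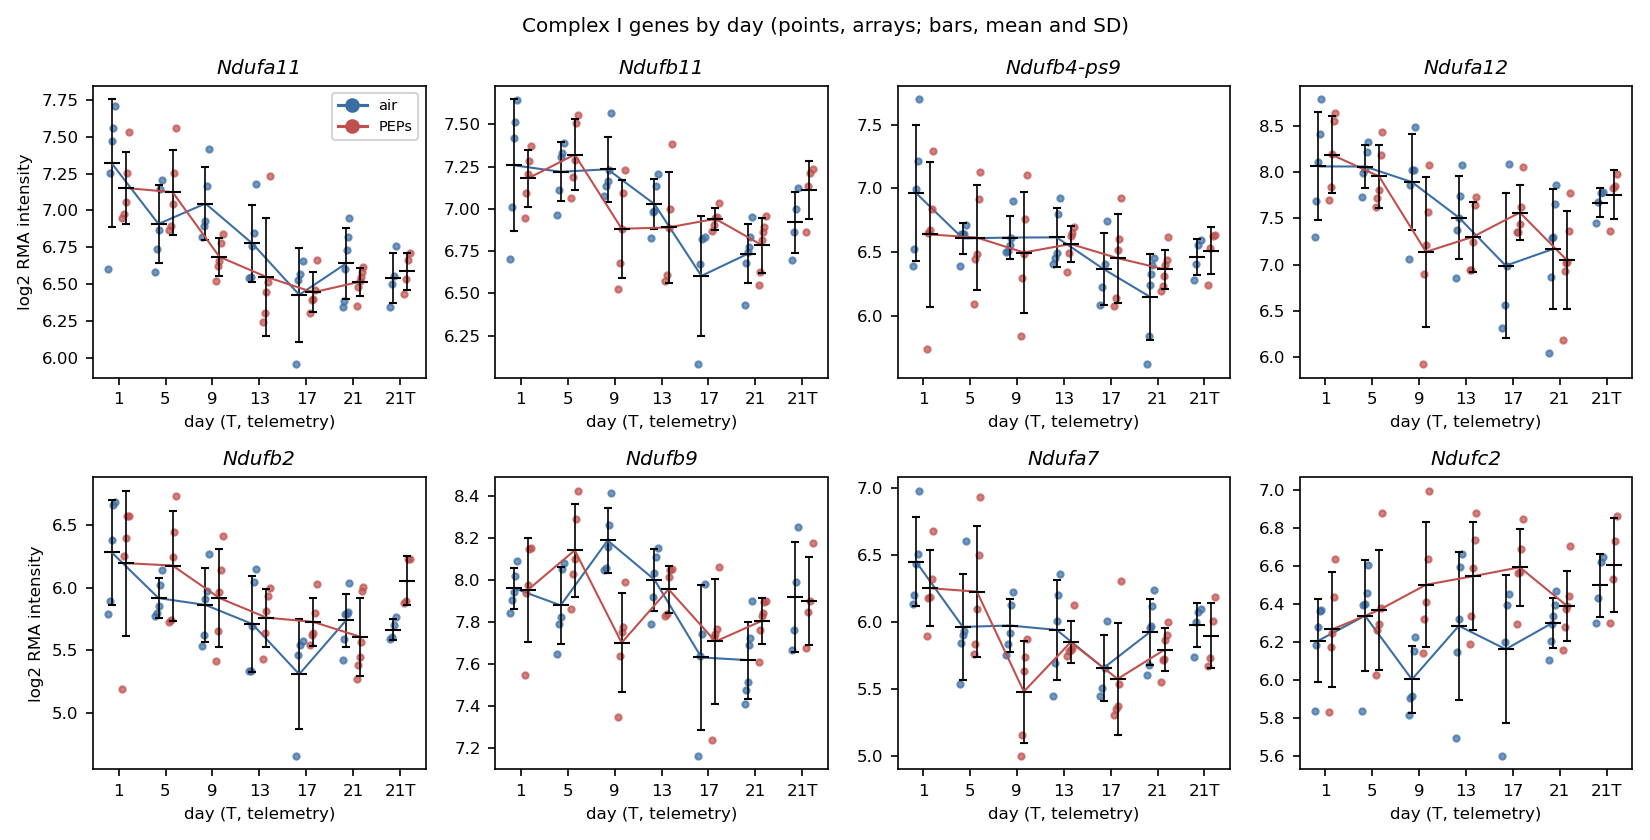
Log2 RMA intensity of 8 complex I genes by day in air (blue) and PEPs (red); points are arrays, black bars the mean and SD, and coloured lines join the means of the 6 days, with telemetry rats (21T) apart. Ndufa11 declines in both arms from about 7.32 and 7.15 on day 1 to 6.64 and 6.52 on day 21, whereas the PEPs mean of Ndufc2 is above the air mean on each of the 6 days.

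Other genes and array measures moved over the same days. Of 13 erythroid and reticulocyte genes measured (23 in the list), all 13 were lower on day 21 in both arms (medians −0.55 in air and −0.67 with PEPs). Of the 8 that were tested, 2 passed in air and 5 with PEPs. The mean of the 13 genes per array fell from 10.1 to 10.6 on day 1 to 9.70 to 10.1 on day 21 in air, and from 10.1 to 10.6 to 9.56 to 9.97 with PEPs. T cell genes rose with PEPs (11 of 17 passed, median 0.54). Platelet genes had a median of 0.64 in air, where Air_D1 replicate 2 was low, and of 0.09 with PEPs. The lower quartile of the array, a measure of background, averaged 1.57 on day 1 and 1.44 on day 21 in air, and 1.60 and 1.45 with PEPs.

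With 2 components of the olfactory receptor genes, which run with that background, as covariates, Ndufb4-ps9 in air was the 1 call left between day 1 and day 21 (0 of 42 with PEPs), and Ndufa11 stood at −0.48 in air and −0.42 with PEPs. The part of the erythroid, T cell and platelet genes in these differences was not tested.

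Further genes of oxidative phosphorylation fell over the same interval, in which 1.97% of all probe sets passed in air and 8.13% with PEPs. The calls of these genes were not checked with the olfactory receptor components, with arrays left out or with the compared groups alone. Among 28 tested genes of complexes II to V, 6 fell in air and 8 with PEPs, and 5 of them did so in both: Atp5f1b, a catalytic subunit of ATP synthase (−0.77 ± 0.15, limma adjusted p = 0.00375, and −0.67 ± 0.16, adjusted p = 0.00529), Atp5mf (−0.73 ± 0.18 and −0.80 ± 0.19), Atp5pd (−0.68 ± 0.18 and −0.62 ± 0.19), Cox4i1 (−0.51 ± 0.11 and −0.65 ± 0.12) and Cox8a (−0.58 ± 0.15 and −0.57 ± 0.15). Uqcrq of complex III fell in air (−0.62 ± 0.16), and Atp5me (−0.73 ± 0.21), Cox5b (−0.80 ± 0.22) and Cox7b (−0.98 ± 0.29) with PEPs. The list median was −0.25 in air and −0.10 with PEPs. The F-test over days passed for Atp5f1b, Atp5mf, Atp5pd, Cox4i1, Cox6a1, Cox8a and Uqcrc2 in both arms, with Cox4i1 at F = 8.14 in air (limma adjusted p = 0.00362) and 7.82 with PEPs (adjusted p = 0.00302), and for Cox7b with PEPs.

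Among 11 further genes of complex I assembly without an Nduf symbol, 0 passed by limma between day 1 and day 21; the smallest p-values were those of Lyrm2 (−0.42 ± 0.17, adjusted p = 0.194) and Nubpl (−0.38 ± 0.18) in air and of Acad9 (0.46 ± 0.18, adjusted p = 0.11) and Lyrm2 (−0.36 ± 0.18) with PEPs. Lyrm2 passed the F-test over days in air (F = 7.49, adjusted p = 0.00543). Of 8 factors of mitochondrial biogenesis, Gabpb1, a subunit of GABP (0.69 ± 0.22, adjusted p = 0.0422), and Pprc1, a coactivator (0.62 ± 0.17, adjusted p = 0.0172), rose with PEPs. In air 0 passed, and the smallest p-values there were those of Gabpb1 (0.55 ± 0.22, adjusted p = 0.169) and Ppargc1a (−0.32 ± 0.15). The F-test over days passed with PEPs for Gabpa (F = 4.28, adjusted p = 0.0483), Pprc1 (F = 4.38, adjusted p = 0.0439) and Yy1 (F = 4.57, adjusted p = 0.0375). In the exposure comparisons 0 genes of these 3 lists passed.

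**Figure D5:**
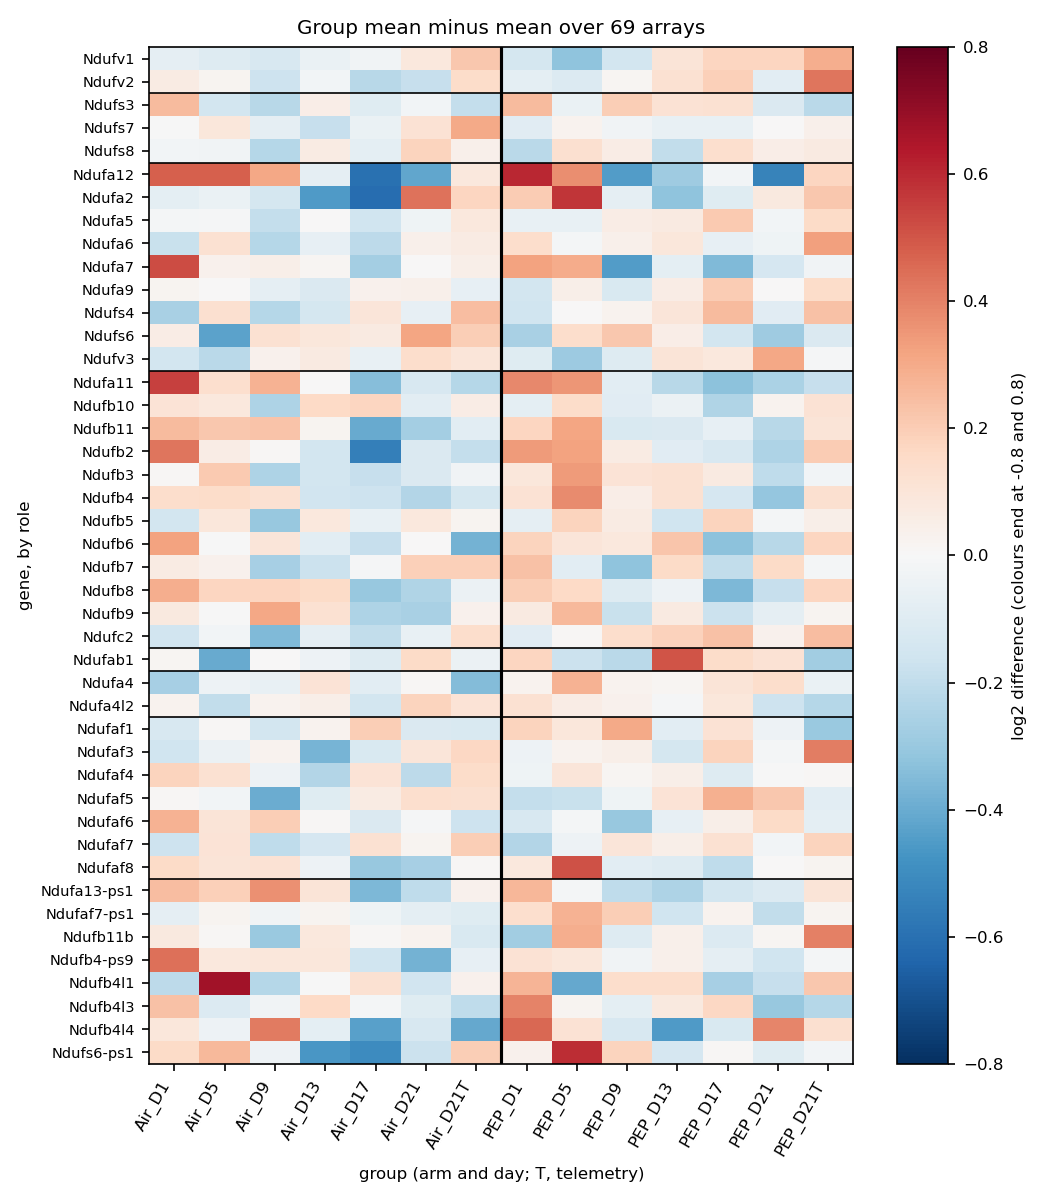
Group mean minus the mean over 69 arrays (log2; red above, blue below) for the 44 genes, ordered by role with lines between roles, in the 7 air groups (left) and the 7 PEPs groups (right). Membrane-arm genes such as Ndufa11, Ndufb11 and Ndufb2 are red or pale on days 1 and 5 and pale or blue on days 13, 17 and 21 in both arms.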

How the data were processed

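The authors deposited log2 intensities of 36685 probe sets for 69 Affymetrix Rat Gene ST arrays, made by RMA with oligo in R 3.4 per the submitters' processing notes, which also name limma. RMA corrects background, equalizes the distributions of the arrays and summarizes probes by median polish, so levels are not comparable between probe sets and no count or depth stands behind a value; the number of arrays limits the precision. Groups came from the labels.

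The fit used limma 3.58.1 under R 4.3.3, with a separate mean for each of 14 groups and empirical Bayes moderation. Each array had a single weight for all genes, estimated by the gene-by-gene update of limma. Within each of 16 comparisons, p-values were adjusted by Benjamini-Hochberg over the 34176 probe sets whose variance reached 0.05, and an adjusted p under 0.05 passed. The fit was run before use on simulated data, drawn as independent normal noise with the spreads and array weights of the fit. Such data meet the assumptions of the fit and cannot test them. Errors of differences are SEs from limma and errors of means are SDs. Relations across arrays used deviations from group means and 100000 permutations within groups, 2-sided, in numpy 2.4.6.

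Which genes the text names followed fixed criteria: in each comparison the 4 lowest p-values and all genes that passed, the 3 largest and 3 smallest spreads, Ndufa2, the 5 genes outside the set closest to its mean, and from the related lists those that passed or else, between day 1 and day 21, the 2 with the lowest p. The genes, lists and tests were chosen with earlier results of these data known.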

Additional observations from a re-analysis of the deposited data

Results flagged for a closer look

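Single arrays stood apart within their group, by the gap to the nearest array relative to the range of the group, in 8 of 112 combinations of 8 measures and 14 groups, where chance gives about 1 in 20. The mean of all 44 genes was lowest in PEP_D5 replicate 5, at 4.562, with the nearest array at 4.743. Ndufa11 was highest in PEP_D13 replicate 1 (7.233, nearest 6.514), as was Ndufa7 (6.126, nearest 5.802). Ndufa7 was also highest in PEP_D17 replicate 3 (6.305, nearest 5.538). Ndufb2 was lowest in PEP_D1 replicate 5 (5.19, nearest 6.249) and in Air_D17 replicate 2 (4.657, nearest 5.461). Ndufb4-ps9 was lowest in Air_D5 replicate 5 (6.392, nearest 6.642) and highest in Air_D9 replicate 4 (6.899, nearest 6.611).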

How the results depend on the processing

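Of the 890 alternative values of the 64 results of single named genes, 842 stayed on the same side of the threshold, 36 lost a call and 12 gained one. None turned its direction, but this says little. The F-tests among them have no direction, and the genes were named for low p-values in these same data. In the exposure and telemetry comparisons 0 of the 42 genes passed in any setting. Medians of the 44 genes close to 0 did turn: with cyclic loess that of day 1 went from −0.032 to 0.009 and that of day 9 from 0.0069 to −0.0094. With 1 array left out, the median turned on day 1 (0.012 without PEP_D1 replicate 4), day 9 (−0.039 without PEP_D9 replicate 5), day 13 (−0.022 without Air_D13 replicate 5) and day 21 (0.035 without Air_D21 replicate 5), and for telemetry in air (−0.0058 without Air_D21 replicate 2). Between day 1 and day 21 in air, where 3 genes had passed, 1 passed with 2 olfactory receptor components as covariates, 0 when only the arrays of both groups were fitted, and 1 to 4 with 1 array left out (1 without Air_D21 replicate 4). The median of the 44 genes there was −0.16 after cyclic loess and ran from −0.17 (without Air_D1 replicate 5) to −0.012 with 1 array left out. With PEPs, 6 passed after cyclic loess, 0 with the olfactory components, 7 without probe sets under the median level and 1 to 4 with 1 array left out (1 without PEP_D1 replicate 2), and the median was −0.19 both after loess and with the components. In the F-test over days in air 0 passed with the components and 0 with only those arrays, and 2 to 5 with 1 array left out (2 without Air_D21 replicate 3). With PEPs 6 passed after loess, 0 with the components and 6 without low probe sets. Leaving out the low probe sets lowers the number of tests. Fitting only the arrays compared lowers the residual degrees of freedom and estimates the spread and the array weights anew. Why the counts changed was not tested in any of these settings. With the replicate number as a replicate block, 2, 4, 5 and 4 genes passed in these 4 comparisons; the numbers did not pair the arrays, since 1 of 34 same-numbered pairs correlated over 0.1 (median 0.0075, range −0.076 to 0.249). Scaling moved the median of all genes by less than 0.1. Groups of 4 to 6 arrays limit what single days can show.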
